A study of Rattus norvegicus with 4 samples.

Results

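Rab GTPases and the Rab acceptor gene Rabac1 were described in ear skin of 2 Sprague Dawley rats. The genes were the protein-coding rows of the count table whose symbol is Rab followed by a number and at most a letter and a digit, together with Rabac1. There were 60 such rows among 54532 rows in all. Rabac1 stood out in earlier results of these same libraries, and the difference between its groups is therefore given as a description without a test. In each rat, 1 ear received AAV-Fgf7, an adeno-associated virus that carries the gene for fibroblast growth factor 7 and is labelled as Fgf7 overexpression. The other ear received AAV-control, a control virus, and is labelled wild type. Skin at the injection sites was taken on day 3, which gave 2 libraries for AAV-Fgf7 and 2 for AAV-control, 1 of each from each rat. The promoter of the virus, the sequence that the control virus carries, and the age and sex of the rats are not stated in the labels.

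Rab proteins are small GTPases that mark the membranes of the cell and direct vesicles between them. Newly made Rabs receive lipid anchors from a prenyl transferase with the help of an escort protein, exchange factors load them with GTP, and GTPase-activating proteins switch them off. The GDP dissociation inhibitor (GDI) keeps inactive Rabs soluble, and RABAC1, also called PRA1, binds lipid-modified Rabs and takes part in their delivery from GDI to membranes. In skin, RAB27A joins melanosomes to myosin Va in pigment cells, RAB32 and RAB38 carry pigment enzymes to melanosomes, and RAB25 belongs to epithelial recycling endosomes. Sprague Dawley rats are albino.

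The libraries held 1433247 and 1417294 counts for AAV-Fgf7 and 1299136 and 1601321 counts for AAV-control, in the order of rats 1 and 2. Fgf7, the delivered gene, had 454 and 1429 counts in AAV-Fgf7 skin, against 94 and 110 in AAV-control skin. All rows of these rat libraries carry mouse gene identifiers, and the way reads reached them is unknown here. Counts were present for 47 of the 60 genes, or 78.3%, against 52.4% of the 22046 protein-coding rows. A low-count filter kept 29 of the 60, or 48.3%, against 26.6% of protein-coding rows, and 6370 genes of all kinds were tested. Tissue content differed within each group. Summed levels of 12 skeletal muscle markers were 27985 and 13884 CPM (counts relative to the scaled library total) in AAV-Fgf7 skin, against 12978 and 52555 CPM in AAV-control skin. The 11 hair follicle markers in the table summed to 3862 and 173 CPM in AAV-Fgf7 skin, against 72.9 and 1204 CPM in AAV-control skin. In such bulk skin, fewer cells of a type and less RNA per cell cannot be told apart.

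Rabac1 was the gene of the set with the widest difference between the groups. It had 7 and 3 counts in AAV-Fgf7 skin of rats 1 and 2, against 56 and 48 counts in AAV-control skin. Scaled to library size, these were 4.89 and 2.05 CPM for AAV-Fgf7 and 42.1 and 31.6 CPM for AAV-control. Both AAV-Fgf7 libraries were low, both AAV-control libraries were high, and the groups did not overlap. Means were 3.47 ± 2.01 CPM in AAV-Fgf7 skin and 36.8 ± 7.40 CPM in AAV-control skin (SD, n = 2 each). The log2 fold change was -3.38 (SE 0.52). Within a rat, the level in the AAV-Fgf7 ear was 0.116 times that in the AAV-control ear in rat 1, with an exact 95% interval of 0.0447 to 0.256. In rat 2 it was 0.0650 times, with an interval of 0.0130 to 0.202. These intervals cover counting error only, and they test nothing, since the gene was chosen for its values in these libraries. Across 17 other fits the log2 fold change ran from -4.11, without the AAV-Fgf7 library of rat 1, to -2.89, without that of rat 2.

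Rabac1 is listed as ENSMUSG00000003380, on the minus strand of mouse chromosome 7 (24969752 to 24972754, build not stated in the labels), with 1523 bases of gene model. The row that overlaps it, a microRNA gene, had no count. Of its neighbours, Arhgef1, an exchange factor gene, had 10 and 8 counts in AAV-Fgf7 skin, against 11 and 8 in AAV-control skin. Grik5, a glutamate receptor gene, had 95 and 55 counts in AAV-Fgf7 skin, against 76 and 99 in AAV-control skin. In both genes the groups overlapped.

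**Figure D1:**
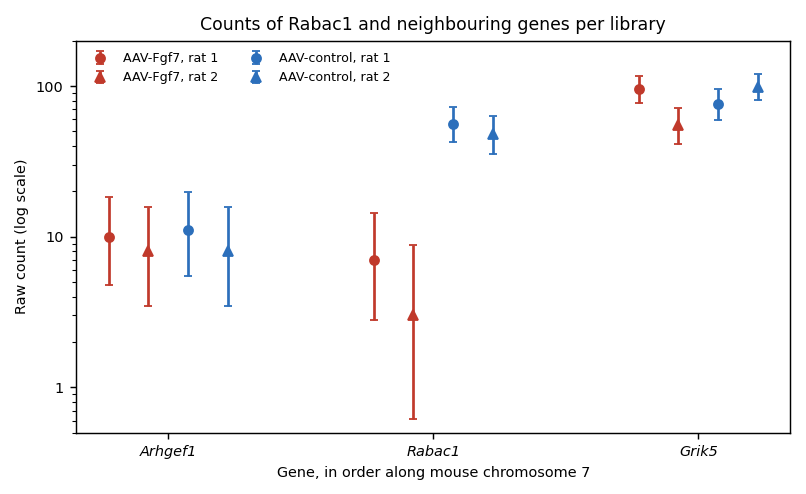
Raw counts (log scale) of Rabac1 and of its neighbours Arhgef1 and Grik5, in the order of the listed mouse coordinates; red symbols are AAV-Fgf7 libraries, blue symbols AAV-control libraries, circles rat 1, triangles rat 2, and bars exact 95% Poisson intervals. Rabac1 stands at 7 and 3 counts in AAV-Fgf7 skin against 56 and 48 in AAV-control skin, and neither of these neighbours shows such a gap.

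The other genes of the PRA1 family had few counts. Arl6ip5, a PRA1 family gene, had 3 and 5 counts in AAV-Fgf7 skin, against 1 and 2 in AAV-control skin. Praf2, another family member, had no count in any library. Neither passed the low-count filter, so the family beyond Rabac1 could not be compared at this depth.

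None of the 28 tested Rab genes passed the edgeR quasi-likelihood test at a Benjamini-Hochberg adjusted p of 0.05, and 0 of all 6370 tested genes did (0%). Nor did limma-voom (0% of all tested genes) or DESeq2 (0.0628%) call any of the 28. With Rabac1 set aside, 0 Rab genes had an unadjusted p under 0.05, against 2.32% of all tested genes. Their log2 fold changes ran from -0.81 to 0.33 with a median of -0.04, beside a median of -0.02 over all tested genes. Counted with Rabac1, 23 of 29 (79.3%) lay within 0.25 of 0 on the log2 scale, against 54.9% of all tested genes. These shares are not matched for abundance. A mean count of at least 100 was held by 19 of the 29, against 2217 of the 6370 tested genes, and genes of lower count vary more between libraries. Both AAV-Fgf7 libraries lay above both AAV-control libraries for 3 of the 29 (14.8% of all tested genes did) and below them for 6, Rabac1 among them (13.3% of all tested genes did). With library totals alone as scaling, these counts were 5 above and 5 below.

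**Figure D2:**
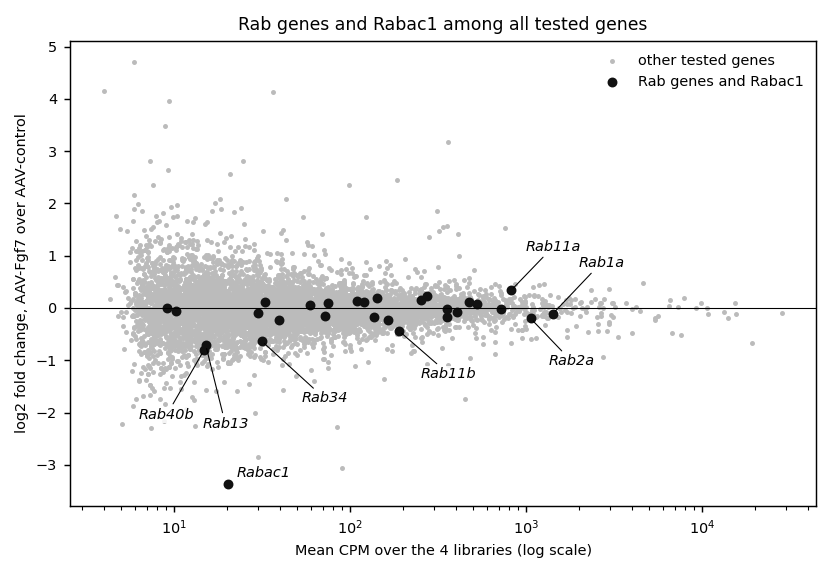
Log2 fold change of AAV-Fgf7 over AAV-control against mean CPM over the 4 libraries (log scale) for all 6370 tested genes (grey) and for the 29 tested Rab genes and Rabac1 (black). The Rab genes lie between -0.81 and 0.33, and Rabac1 lies apart at -3.38.

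Rabs of the endoplasmic reticulum and Golgi carried the highest levels. In FPKM, which sets counts against the listed gene length, Rab2a stood at 470 and 448 in AAV-Fgf7 skin, against 522 and 536 in AAV-control skin. RAB2A acts at the Golgi, and its groups did not overlap, with a log2 fold change of -0.20 (SE 0.17). Rab1a, which directs transport from the endoplasmic reticulum to the Golgi, stood at 331 and 381 FPKM, against 389 and 383 FPKM in AAV-control skin. The AAV-Fgf7 library of rat 2 lay just under both controls, and the log2 fold change was -0.11 (SE 0.18). Rab6a, a Golgi Rab of retrograde transport, stood at 79.1 and 78.0 FPKM in AAV-Fgf7 skin, above the 64.6 and 70.3 FPKM of AAV-control skin, with a log2 fold change of 0.23 (SE 0.18). Rab18, a Rab of the endoplasmic reticulum and lipid droplets, had a log2 fold change of -0.17 (SE 0.20), and Rab1b, the close relative of Rab1a, one of 0.09 (SE 0.28). Rab2b, the relative of Rab2a, stood at -0.24 (SE 0.31), Rab30 at -0.15 (SE 0.32) and Rab43 at -0.01 (SE 0.83). All 11 genes of this group had a count, 8 were tested, and 0 of the 8 were called, with a median log2 fold change of -0.13.

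Rabs of early endosomes, where material taken up from the surface is sorted, had a median log2 fold change of 0.11 over 4 tested genes. The group is led by the RAB5 proteins, which control fusion of early endosomes. Rab5c stood at 219 and 268 FPKM in AAV-Fgf7 skin, against 275 and 190 FPKM in AAV-control skin, so that the groups overlapped. The log2 fold changes were 0.07 (SE 0.24) for Rab5c, 0.16 (SE 0.19) for Rab5a and -0.09 (SE 0.36) for Rab5b. Rab21, a Rab of integrin uptake, stood at 0.19 (SE 0.22). Of the other 4 genes, Rab22a had 7 and 2 counts in AAV-Fgf7 skin, against 13 and 3 in AAV-control skin. Rab31 had 1 count in all, and Rab4a and Rab4b, which act in rapid recycling, had none. Both Rab4a and Rab4b overlap another protein-coding row on the same strand, which had no count either. How reads in overlapping rows were counted is unknown here.

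All 8 recycling and plasma membrane Rabs passed the low-count filter, with log2 fold changes of -0.71 to 0.33 and a median of 0.04. Rab11a, the main Rab of recycling endosomes, stood at 279 and 328 FPKM in AAV-Fgf7 skin, above the 273 and 210 FPKM of AAV-control skin. The gap between the groups was narrow in rat 1 and wider in rat 2, where the AAV-Fgf7 ear held 1.56 times the level of the other ear, and the log2 fold change was 0.33 (SE 0.21). Its relative Rab11b stood at 29.4 and 22.8 FPKM in AAV-Fgf7 skin, below the 33.8 and 37.3 FPKM of AAV-control skin, with a log2 fold change of -0.44 (SE 0.22). With the counts of its pseudogene row Rab11b-ps2 added, the groups overlapped, at 540.1 and 430.8 CPM in AAV-Fgf7 skin, against 507.8 and 575.4 CPM in AAV-control skin, and the log2 fold change was -0.16 (SE 0.20). Neither Rab11a nor Rab11b passed the test. Rab10 and Rab14, which act in transport to the cell surface, stood at 0.11 (SE 0.18) and -0.03 (SE 0.20), and Rab35 at 0.14 (SE 0.22). Rab8a, a Rab of transport to the plasma membrane and cilium, had 158 and 216 counts in AAV-Fgf7 skin, against 258 and 149 in AAV-control skin, and Rab8b had 160 and 201, against 207 and 115. In both genes the AAV-control libraries enclosed the AAV-Fgf7 libraries. Rab13, a Rab of tight junction traffic, had 12 and 21 counts in AAV-Fgf7 skin, against 37 and 15 in AAV-control skin, a log2 fold change of -0.71 (SE 0.62). Without the AAV-control library of rat 1 that value was 0.20 (SE 0.74).

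The 3 tested late endosome and lysosome Rabs had log2 fold changes within 0.06 of 0. Rab7, which directs traffic to lysosomes, stood at 257 and 285 FPKM in AAV-Fgf7 skin, against 287 and 262 FPKM in AAV-control skin, with a log2 fold change of -0.01 (SE 0.18). Rab9, a Rab of return transport from late endosomes to the Golgi, stood at 33.6 and 34.9 FPKM, against 31.6 and 34.4 FPKM in AAV-control skin, a log2 fold change of 0.06 (SE 0.26). Rab7b stood at -0.06 (SE 0.72), and Rab9b and Rab24 had no count in any library. The Rab24 row overlaps Prelid1 on the other strand, which had 525 to 871 counts, and the part of this overlap was not tested.

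Among the 15 Rabs with other or less settled roles, 5 were tested. Rab40b, whose protein joins a ubiquitin ligase, stood at 4.82 and 5.75 FPKM in AAV-Fgf7 skin, below the 8.19 and 10.4 FPKM of AAV-control skin, with a log2 fold change of -0.81 (SE 0.41). Rab34, a Rab of cilium formation, stood at 13.6 and 6.83 FPKM in AAV-Fgf7 skin, below the 16.0 and 15.9 FPKM of AAV-control skin, with a log2 fold change of -0.63 (SE 0.41). The low value in rat 2 set most of that difference: the log2 fold change was -0.22 (SE 0.41) without that library and -1.22 (SE 0.47) without the AAV-Fgf7 library of rat 1. Rab40c stood slightly above both controls at 0.12 (SE 0.30), Rab12 at -0.24 (SE 0.25) and Rab28 at -0.08 (SE 0.20). Of the 10 that were not tested, Rab15 had 2 and 3 counts in AAV-Fgf7 skin and none in AAV-control skin, Rab19 and Rab39b had 1 count each in all, and 7 had none.

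**Figure D3:**
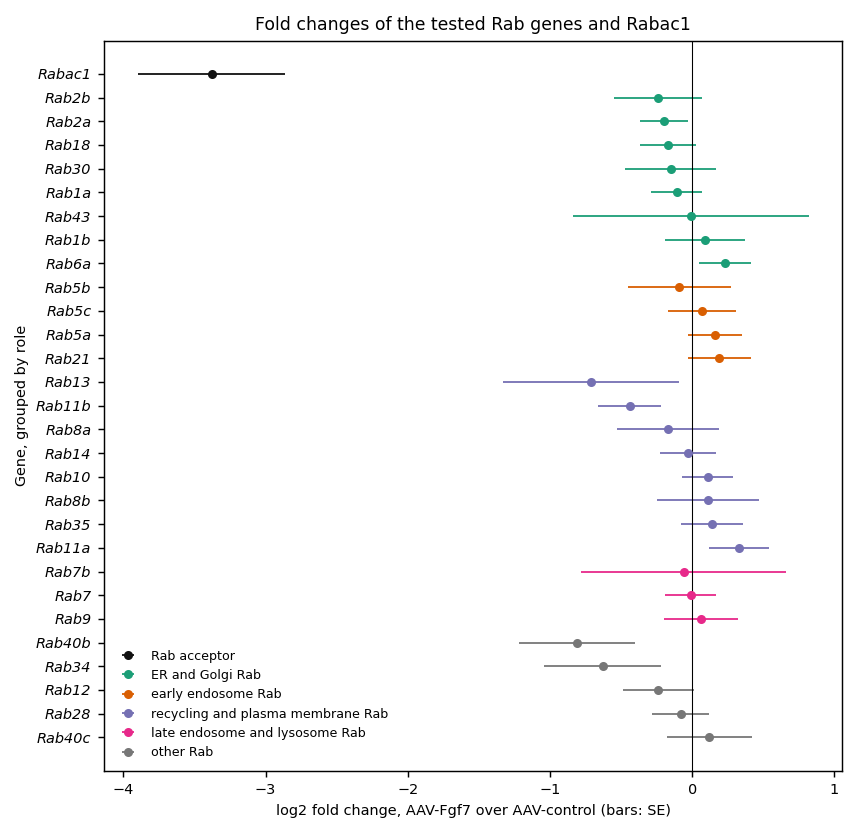
Log2 fold change of AAV-Fgf7 over AAV-control for the 29 tested genes, grouped by role, with bars for the SE of the edgeR fit over 2 libraries a group. Rabac1 lies at -3.38, and the 28 Rab genes lie between -0.81 and 0.33.

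Rabs of epithelial and pigment cells had a far lower summed level than the widely expressed Rabs, and none of them had enough counts to be tested. The 17 widely expressed Rabs summed to 2168 and 2320 FPKM in AAV-Fgf7 skin, against 2378 and 2167 FPKM in AAV-control skin. That was 87.5% to 90.2% of the summed FPKM of all 60 genes in a library. The 6 epithelial and pigment Rabs summed to 2.42 and 6.76 FPKM in AAV-Fgf7 skin, against 3.995 and 4.67 FPKM in AAV-control skin, or 0.0994% to 0.263%. This order of the sums held in each of the 4 libraries. All libraries were counted on the same mouse rows and lengths, so this agreement is no separate support for the order. The order did not hold for every gene, since Rab22a, listed as widely expressed, had a mean of 0.62 FPKM. That was below Rab25, Rab38 and Rab27a, and Rab22a was not tested.

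Rab25, the epithelial Rab with counts, had 5 and 9 counts in AAV-Fgf7 skin, against 3 and 3 in AAV-control skin. As FPKM these were 2.06 and 3.65, against 1.34 and 1.17, so both AAV-Fgf7 libraries lay above both controls on few counts. The 10 genes listed as basal keratinocyte markers summed to 1969 and 3702 CPM in AAV-Fgf7 skin, against 1285 and 1234 CPM in AAV-control skin. Of these sums, Sfn gave 443.6 and 562.3 CPM in AAV-Fgf7 skin, against 126.9 and 216.6 CPM in AAV-control skin. Krt14, Krt5, Sfn and Trp63 were higher in both AAV-Fgf7 libraries than in both controls, and the groups overlapped for the other 6. The 10 suprabasal markers summed to 2628 and 4527 CPM in AAV-Fgf7 skin, against 2663 and 2704 CPM in AAV-control skin. Klf4 and Krt10 carried nearly all of this sum, and Dsc1, Ivl and Flg had no count. Klf4 stood at 1697 and 1816 CPM in AAV-Fgf7 skin, against 1664 and 2068 CPM in AAV-control skin. Krt10 stood at 843 and 2541 CPM, against 899 and 576 CPM in AAV-control skin. The part of keratinocyte content in the Rab25 values was not tested. Rab17, an epithelial Rab of apical transport, was listed at 0 in all 4 libraries. So were Dcn and Lum, which encode dermal proteoglycans, beside 33135 to 48353 counts of the collagen gene Col1a1, and no upper limit is drawn from the 0 of Rab17.

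Rab27a had 2 and 3 counts in AAV-Fgf7 skin, against 4 and 6 in AAV-control skin. Rab38 had 0 and 6 counts, against 3 and 6 in AAV-control skin. Rab32 had no count in AAV-Fgf7 skin and 1 and 0 in AAV-control skin, and Rab27b, the relative of Rab27a found in secretory cells, none and 2 and 0. Of the partners of these Rabs, Mlph, which encodes melanophilin, the link between RAB27A and myosin Va, had no count in any library. Myo5a, which encodes myosin Va and is also used in nerve and other cells, had 165 and 189 counts in AAV-Fgf7 skin, against 178 and 145 in AAV-control skin. Among 10 melanocyte markers, Pmel, Mlana, Slc45a2 and Oca2 had no count, and the pigment enzyme genes Tyr, Tyrp1 and Dct had at most 2 in a library. The summed level of the list was 76.9 and 42.5 CPM in AAV-Fgf7 skin, against 53.3 and 61.2 CPM in AAV-control skin, and most of it was Mitf and Sox10, which other cells also use. Because rat reads are counted here under mouse genes, a gene listed at 0 may still be transcribed.

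Rabs of regulated secretion also had few counts. Of 6 genes, 5 had a count and none was tested. Rab37, a Rab of secretory granules, had 6 and 4 counts in AAV-Fgf7 skin, against 24 and 0 in AAV-control skin, so a single control library held most of its counts. Rab3a, the synaptic vesicle Rab, had 3 and 1 counts, against 7 and 2 in AAV-control skin, and Rab3d had none.

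**Figure D4:**
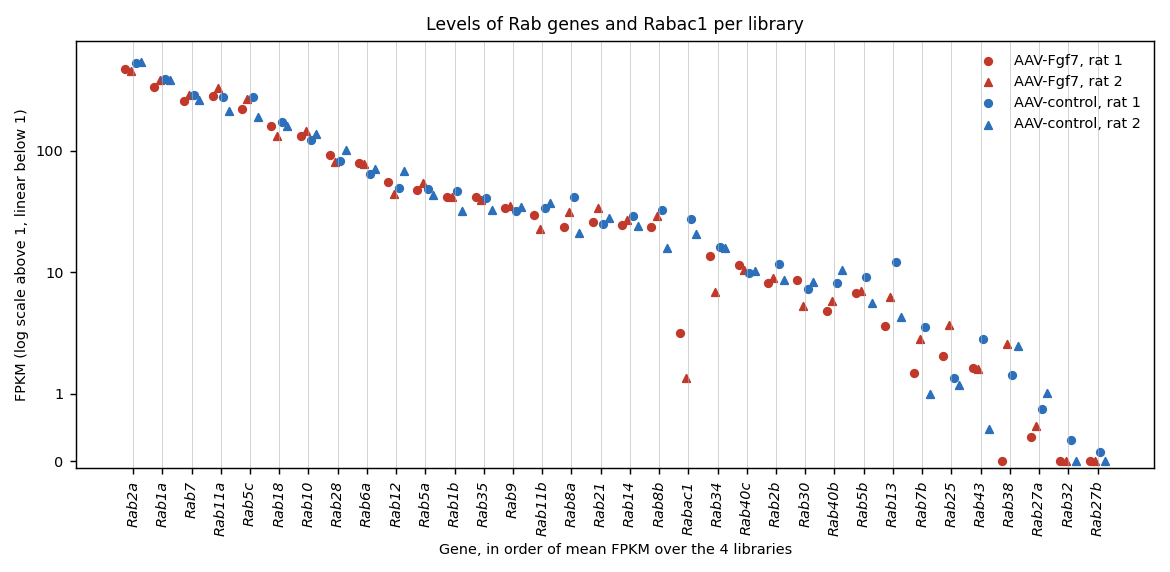
FPKM of each gene in each library (log scale above 1, linear below 1) for the 29 tested genes and the 5 epithelial and pigment Rabs with a count, in order of mean FPKM; red symbols are AAV-Fgf7 libraries, blue symbols AAV-control libraries, circles rat 1 and triangles rat 2. Widely expressed Rabs such as Rab2a and Rab1a lie highest, at 331 to 536 FPKM, with close symbols, Rabac1 shows a wide gap between colours, and Rab25, Rab38, Rab27a, Rab32 and Rab27b lie below 4 FPKM.

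The spread of the abundant Rabs over the 4 libraries was near that of other genes of like abundance. For the 19 genes with a mean count of at least 100, the highest library held 1.11 to 2.05 times the level of the lowest, with a median of 1.3. The median over all 2217 tested genes of that abundance was 1.38. Within 1.5 times lay 13 of the 19 (68.4%), against 64.7% of those 2217 genes. Of the 19, Rab7 varied least, by 1.11 times, and Rab8b most, by 2.05 times, followed by Rab8a with 1.98 times. Between the control libraries, 6 of the 29 genes (Rab8a, Rab8b, Rab5b, Rab13, Rab7b and Rab43) were at least 1.5 times higher in rat 1 and none was in rat 2. The 6 are 20.7% of the 29, against 16.3% of all tested genes that were so much higher in rat 1 and 19.0% in rat 2. Between the AAV-Fgf7 libraries, Rabac1, Rab34 and Rab30 were that much higher in rat 1 and Rab13 and Rab7b in rat 2. Rab43 had 21 counts in the AAV-control library of rat 1 and 4 in that of rat 2. The AAV-control library of rat 2 was the one with the highest muscle marker sum. Levels of 6 macrophage markers summed to 202.6 and 275.3 CPM in AAV-Fgf7 skin, against 377.8 and 144.8 CPM in AAV-control skin. Rab8a, Rab8b, Rab5b and Rab7b had this same order of libraries, and so did the widely expressed Rab5c and Rab14, while Rab13 and Rab43 did not. The skeletal muscle, cartilage and adipocyte marker sums had exactly the reverse order. A match to the macrophage order is therefore also a reverse match to those sums. The share of all tested genes with the macrophage order was not counted. Csf1r and Aif1 carried nearly all of the macrophage marker sum, Cd163 had no count, and the other 3 markers had at most 5 in a library. The part of tissue content in these differences was not tested.

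Some Rab counts stood in rows listed as mouse processed pseudogenes, which are copies of spliced transcripts. Rab7-ps1 had 516 and 573 counts in AAV-Fgf7 skin, against 507 and 565 in AAV-control skin, or 33.6% to 35.1% of its sum with Rab7. Rab11b-ps2 had 513 and 424 counts, against 400 and 525 in AAV-control skin, and held more than Rab11b itself, with 59.2% to 67.4% of the sum. Rab9b-ps1 had 46 and 66 counts, against 80 and 60 in AAV-control skin, while Rab9b had none. The assignment of reads between such near-identical rows is uncertain, so levels of Rab7 and Rab11b are uncertain too. Whether paralogues such as Rab1a and Rab1b shared reads was not tested.

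**Figure D5:**
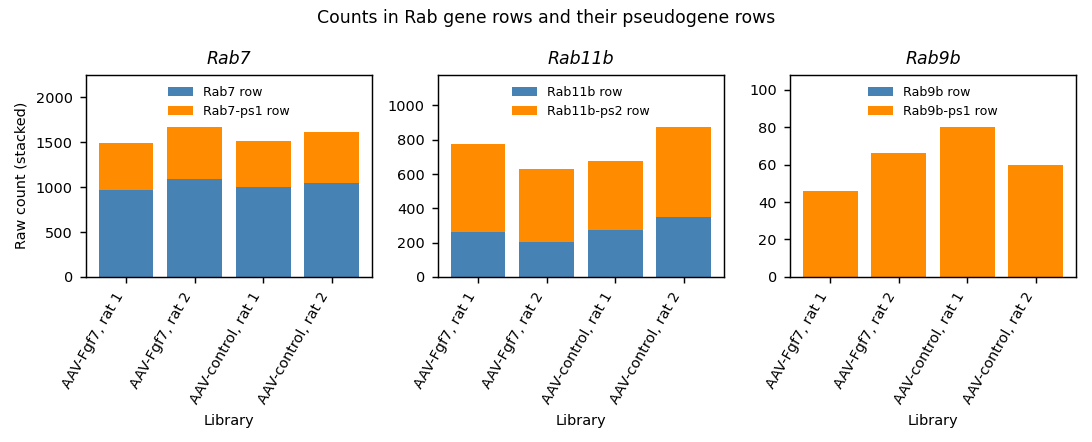
Raw counts per library in the rows of Rab7, Rab11b and Rab9b (blue) and in the rows of their listed processed pseudogenes (orange, stacked), with AAV-Fgf7 libraries left of AAV-control libraries. The pseudogene rows hold 33.6% to 35.1% of the counts for Rab7, 59.2% to 67.4% for Rab11b and all of those for Rab9b.

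The genes that load, retrieve and switch Rabs were described from a list chosen by role. The list held 123 genes, of which 121 had a row and 62 were tested. None of the 62 was called by the edgeR test over all genes (0% of all tested genes were), 1 had an unadjusted p under 0.05, and limma-voom and DESeq2 called 0. Their median log2 fold change was 0.02, with 32 above 0 and 30 below. Gdi2, which encodes a GDI protein, had 429 and 546 counts in AAV-Fgf7 skin, against 548 and 465 in AAV-control skin, a log2 fold change of -0.09 (SE 0.23). Chm, which encodes the Rab escort protein REP1, stood at 0.28 (SE 0.50). Rabggta, the alpha subunit of the prenyl transferase of Rabs, had 5 and 8 counts in AAV-Fgf7 skin, against 12 and 11 in AAV-control skin, too few for the test, and Rabggtb had at most 2 in a library.

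Dennd2a, an exchange factor gene, was the machinery gene of lowest p. It had 3 and 2 counts in AAV-Fgf7 skin, against 11 and 13 in AAV-control skin, a log2 fold change of -2.23 (SE 0.65). Both AAV-Fgf7 libraries were low and the groups did not overlap, but the gene did not pass the edgeR test over all genes. Dennd6a and Dennd5a, exchange factor genes whose groups overlapped, stood at 0.95 (SE 0.61) and -0.25 (SE 0.20). Among effectors, Rabep1 and Rabep2, which encode the RAB5 effectors rabaptin-5 and its relative, stood at -0.44 (SE 0.25) and -0.65 (SE 0.46). Of the genes for GTPase-activating proteins, Tbc1d15 stood at -0.46 (SE 0.31), Evi5 at -0.80 (SE 0.54) and Evi5l at 0.48 (SE 0.35). Over the 62 tested genes, both AAV-Fgf7 libraries lay above both controls for 7 and below them for 8, beside 14.8% and 13.3% of all tested genes.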

How the data were processed

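Per the labels' protocols, a column kit was used to extract RNA, and libraries were made after poly(A) selection or ribosomal RNA depletion (which of them is not stated) for an Illumina NovaSeq X Plus. The authors deposited raw counts per gene, and FPKM values that equalled the count over the listed gene length and an effective library total (largest relative difference 1.3e-14). The tools for alignment and counting were not given in the sources used here. Rnor_6.0 (rn6) is the build in the submitters' processing notes, while all 54532 rows carry mouse Ensembl identifiers, so the share of a rat transcript that is counted is unknown. Of the 60 gene symbols, 56 occurred in a RefSeq table of the rat assembly GRCr8 and 3 more as synonyms. Processed pseudogene rows took 7.51% to 8.93% of a library's counts.

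Libraries were grouped by title. The title numbers pair ears by rat. Titles and the design text disagree on the ear side, which was not used, and the descriptions name the same column for both AAV-Fgf7 samples, so the second such column was assigned by its number. Genes were filtered with filterByExpr of edgeR 4.0.16 (R 4.3.3, minimum count 10), which kept 6370 genes with 98.9% of the counts, and TMM factors ran from 0.949 to 1.03. The groups were compared by the two-sided edgeR quasi-likelihood test with Benjamini-Hochberg adjustment over all tested genes at 0.05. The SE of a log2 fold change is its size over the root of F. The common biological coefficient of variation was 29.1%. Single-gene permutation of 2 against 2 libraries cannot give a two-sided p below 0.33 and was not used. The deviations of the libraries of a rat from their group means correlated at -0.29 across genes, which are not independent. Alternatives used DESeq2 1.42.0, limma 3.58.1, other scaling, filters, FPKM, a rat block and fits without each library.

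The genes, role lists, marker lists and the rule for named genes were chosen with earlier results of these data known. Named were Rabac1, all epithelial and pigment Rabs, every tested gene of the other role lists, genes whose groups did not overlap, and of the machinery list the PRA1, prenylation and GDI genes and up to 8 others of lowest p. Some genes that the rule names are not reported here. Intervals cover counting error only.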

Additional observations from a re-analysis of the deposited data

How the results depend on the processing

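The edgeR fit called 0 of all 6370 genes and 0 of the 29 tested Rab genes and Rabac1. Without the low-count filter 3 genes were called, Rabac1 the 1 among them from this set, and DESeq2 called 4, again with Rabac1 as the 1. DESeq2 on every gene with a count called 3 and none of the set. Fits that left out 1 library called 0 to 59 genes in all and 0 to 1 of the set. The 1 was Rabac1, called without either AAV-control library, which leaves a lone control assumed to vary like the other group. Its values led to its choice, so these calls support nothing. RLE factors, library totals, a filter at a mean of 10 counts, limma-voom, both FPKM fits (pseudocounts 1 and 0.1), protein-coding genes without those of ribosomal proteins, and the replicate block called 0 of all genes and 0 of the set. Of the machinery list, 0 genes were called in each of these fits. The replicate block, which pairs the ears of a rat, changed no call, and the crossed replicate block called 0 genes. With library totals alone, 5 in place of 3 genes of the set lay above both controls. The median log2 fold change of the set, -0.06, ran from -0.15 to 0.09 over the fits without 1 library, and from -0.08 to -0.02 over the others. Of 493 log2 fold changes of single genes under alternatives, 477 moved by less than 1 SE, and 15 of the other 16 came from fits without a library, and the cause was not tested. The alternatives with added pseudogene counts, crossed block, protein-coding genes and DESeq2 on every gene with a count were chosen after seeing the data. The 6 epithelial and pigment Rabs did not pass the low-count filter and could not be compared at this depth.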
